A study of Homo sapiens with 96 samples.

Results

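The splicing of 10 genes of the mRNA export pathway was measured in poly(A)-RNA seq of A549 cells, a human lung adenocarcinoma line, after inhibition of protein arginine methyltransferases (PRMTs). The genes were CHTOP, ALYREF, THOC1, THOC2, THOC5, THOC6, DDX39A, DDX39B, NXF1, and SARNP. They were chosen by name, and all their alternative splicing events were taken from 8 event tables, which gave 240 of 239131 distinct events. The study asked how type I PRMTs and PRMT5 (a type II enzyme) affect splicing. Cells were given 1 µM GSK591, an inhibitor of PRMT5, or 1 µM MS023, an inhibitor of type I PRMTs, for 2, 4, or 7 days. Further cells were given both, at 1 µM each, for 2 or 4 days, and the controls were kept in 0.01% DMSO for 4 or 7 days. Each of the 10 groups held 3 libraries, here called a, b, and c, and all came from this single cell line. The labels do not say that the 3 came from separate cultures, so the spread between them may be technical. The 2- and 4-day inhibitor groups were compared with 4-day DMSO and the 7-day groups with 7-day DMSO, so in the 2-day comparisons treatment and day cannot be told apart. The comparisons at 2 and 4 days share the same 3 DMSO libraries, and those at 7 days share theirs, so they are not independent of each other. That the control columns of the 7-day tables are the 7-day DMSO libraries was inferred from the labels.

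Export-competent mRNA is packaged in the nucleus by the TREX complex, in which the THO subunits (here THOC1, THOC2, THOC5, and THOC6) hold the RNA helicase DDX39B and its close relative DDX39A. The helicases load adaptor proteins such as ALYREF, CHTOP, and SARNP onto spliced RNA, and the adaptors hand the RNA to NXF1, the receptor that carries it through the nuclear pore. CHTOP and ALYREF carry arginine-rich regions that PRMTs methylate. CHTOP protein is also known to limit its own mRNA by promoting retention of an intron.

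Ψ is the share of transcripts that include the alternative segment, from 0 to 1, computed from inclusion and skipping reads divided by their effective lengths, and ΔΨ is Ψ with inhibitor minus Ψ with DMSO. For a retained intron (RI), Ψ is the share that keeps the intron. Values are given as mean ± SD of 3 libraries or as ΔΨ ± SE. Events with at least 10 reads in every library were tested with a quasi-binomial model moderated by limma, and adjusted p (Benjamini-Hochberg, within event type) under 0.05 was called. Per library, 3118222 to 5224249 reads lay on RI events, and replicates varied by 1.88 to 4.72 times the sampling variance. Library a of 2-day GSK591 was the deepest and stood apart from its replicates at several introns below. Reads on events of KRT8, an epithelial keratin, numbered 266370 to 560381 per library, those of the adhesion genes CDH1 and EPCAM 266 to 1310 and 5 to 297, and those of PTPRC and PECAM1, which mark leukocytes and endothelium, were 0 in all 30 libraries. Of the other markers of further cell types, CD3E had 0 to 17 reads, COL1A1 9 to 119, and COL3A1 0 to 22, and their part in the results was not tested.

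Of the 240 events, 225 could be tested in at least 1 of the 8 comparisons with DMSO. The 16 RI lay in 7 of the genes, with none listed in ALYREF, THOC2, or SARNP, and 11 of the 16 were introns of the reference (MANE Select) transcript. Of the 16, 15 began with GT and ended with AG, and 1, an alternative intron of 71 bases in THOC5, was GC-AG. The RI outside the reference introns, called alternative introns here, stood at mean Ψ of 0.946 to 1 in 4-day DMSO. That of THOC5 lies within coding exon 3, and those of THOC6 and THOC1 each hold a coding exon. Their Ψ is therefore not the retention of a reference intron, but they are part of the counts and medians of member RI. The introns that the results turn on are shown first, with coordinates of hg19 (GRCh37). The 3 adjacent introns of THOC6 and the last DDX39A intron listed are printed whole because they held the largest gains in retention, and capitals mark the first stop codon in frame with the upstream exon.
THOC6 intron 2, chr16:3075825-3075924 (+): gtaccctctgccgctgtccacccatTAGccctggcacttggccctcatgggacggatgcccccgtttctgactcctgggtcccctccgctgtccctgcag
THOC6 intron 3, chr16:3075990-3076063 (+): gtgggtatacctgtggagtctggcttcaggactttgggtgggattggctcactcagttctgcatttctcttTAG
THOC6 intron 4, chr16:3076168-3076251 (+): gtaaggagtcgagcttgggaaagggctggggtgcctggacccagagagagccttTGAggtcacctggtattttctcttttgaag
DDX39A intron 8, chr19:14520260-14520347 (-): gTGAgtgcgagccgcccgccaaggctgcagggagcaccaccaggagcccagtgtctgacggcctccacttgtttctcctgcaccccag

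At 100, 74, 84, and 88 bases these were short, against a median of 263 bases (quartiles 120 and 614) over the 4282 introns tested. DDX39A introns 6 and 2, which also gained retention with GSK591, had 342 and 334 bases. A link of length to response was not tested. The introns of CHTOP and DDX39B lost retention with MS023 and gained it with GSK591 at 4 days, and the NXF1 intron passed no test. These were long, at 1641, 2455, and 1801 bases. Their splice sites are given for comparison, with the last 3 exonic bases and 6 intronic bases at the 5′ end, the last 20 intronic and first 3 exonic bases at the 3′ end, and the invariant intronic dinucleotides in capitals.
CHTOP intron 2, chr1:153609130-153610770 (+), 5′ site: gcgGTgagg
CHTOP intron 2, 3′ site: cattttgttcgaccttgaAGctt
DDX39B intron 6, chr6:31500689-31503143 (-), 5′ site: gatGTaaat
DDX39B intron 6, 3′ site: acccccttcctcccccccAGcca
NXF1 intron 10, chr11:62566048-62567848 (-), 5′ site: cagGTcagt
NXF1 intron 10, 3′ site: ttctgtcccgttcttgacAGcgc

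All 11 reference introns lay between the start and stop codons, and 10 held a stop codon in frame with the upstream exon (the exception was intron 14 of THOC1). The calls with GSK591 were gains of retention and those with MS023 were losses. Of the 11, 6, 10, and 6 rose with GSK591 at 2, 4, and 7 days and none fell. With MS023, 2 fell at each of 2, 4, and 7 days, the introns of CHTOP and DDX39B, and none rose. With both inhibitors 5 rose and 2 fell at 2 days, and 6 rose and none fell at 4 days. Over the 15, 15, and 15 member RI tested with GSK591, 6, 10, and 6 were called and all were higher, against 26.4%, 38.2%, and 27.9% of all RI tested (24%, 33.9%, and 21.8% higher), and the median ΔΨ of 0.0138, 0.0321, and 0.0185 stood beside 0.0150, 0.0196, and 0.00762 for all RI. For MS023, 2 of 15, 2 of 16, and 2 of 14 were called, against 5.65%, 7.17%, and 11.4% of all RI (4.21%, 5.6%, and 9.49% lower). For both inhibitors, 7 of 15 and 6 of 15 were called, against 34.7% and 39.7% of all RI (29.7% and 33.6% higher, 5.03% and 6.1% lower).

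Across the 5 event types, with GSK591, 14 of 128, 24 of 140, and 11 of 127 were called at 2, 4, and 7 days, against 7.02%, 11.2%, and 8.93% of all events tested. With MS023 the counts were 4 of 113, 6 of 115, and 6 of 116, against 3.16%, 3.75%, and 4.75%. With both inhibitors they were 22 of 137 and 21 of 133, against 13.4% and 14.7%. Over the 8 comparisons 44 of the 225 events tested were called at least once. By type these were 24 of 136 skipped exons, 10 of 16 RI, and 0 of 37 mutually exclusive exons. Alternative 3′ splice sites gave 7 of 24 and alternative 5′ splice sites 3 of 12. By gene, THOC2 had 7 of 66 called, THOC6 7 of 15, DDX39A 7 of 24, and DDX39B 7 of 32. For THOC5 it was 5 of 20, for CHTOP 3 of 7, for THOC1 3 of 26, and for NXF1 3 of 23. ALYREF had 2 of 3 and SARNP 0 of 9. The share of all events called at least once is not given here, so these counts have no background beside them.

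**Figure D1:**
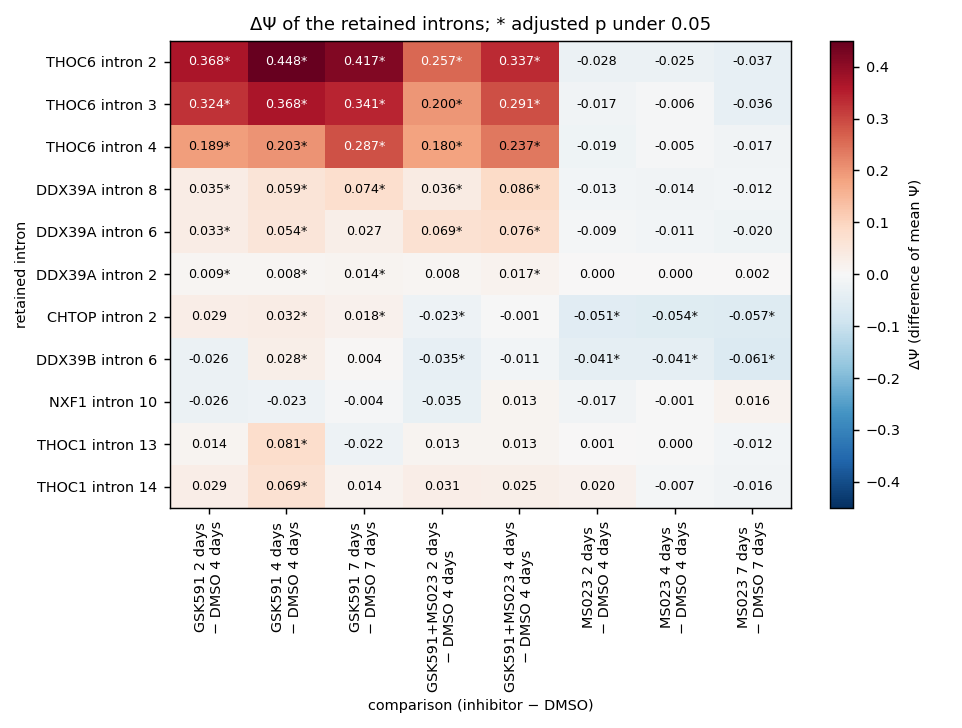
ΔΨ (inhibitor minus DMSO, colour scale and printed value) of the 11 reference-transcript introns (rows) in the 8 comparisons (columns), with an asterisk where adjusted p was under 0.05. The THOC6 rows reach 0.448 with GSK591, and CHTOP intron 2 and DDX39B intron 6 carry the only asterisks in the 3 MS023 columns, at -0.0406 to -0.0613.

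THOC6, a WD-repeat subunit of THO, showed the largest changes in retention of the 10 genes. Intron 2 was retained at Ψ 0.0632, 0.0839, and 0.0567 in the 3 libraries of 4-day DMSO, at 0.409, 0.452, and 0.446 after 2 days of GSK591, and at 0.503, 0.454, and 0.590 after 4 days. At 7 days it was 0.0877, 0.0516, and 0.0667 with DMSO and 0.512, 0.496, and 0.450 with GSK591. All 9 GSK591 libraries were several-fold above every DMSO library. ΔΨ was 0.368 ± 0.0159, 0.448 ± 0.0407, and 0.417 ± 0.0211 at 2, 4, and 7 days (moderated quasi-binomial test, adjusted p = 9.61e-08, 4.32e-10, and 1.32e-09). With both inhibitors the libraries gave 0.356, 0.300, and 0.319 at 2 days and 0.402, 0.434, and 0.378 at 4 days. These too lay above all DMSO libraries, with ΔΨ of 0.257 ± 0.0184 and 0.337 ± 0.0182 (adjusted p = 1.60e-08 and 1.70e-10). With MS023 the 9 libraries gave 0.0249 to 0.0592, and ΔΨ of -0.0280, -0.0253, and -0.0372 did not pass the test (adjusted p = 0.214, 0.247, and 0.0878), although no 4- or 7-day library reached its DMSO libraries.

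The next introns of THOC6 moved with it. Intron 3 was retained at 0.134, 0.163, and 0.173 in 4-day DMSO and at 0.456, 0.514, and 0.604 in 4-day GSK591, and intron 4 at 0.167, 0.179, and 0.165 against 0.353, 0.415, and 0.350. In both, every library with GSK591, alone or with MS023, lay above every DMSO library it was compared with. ΔΨ of intron 3 was 0.324 ± 0.0612, 0.368 ± 0.0445, and 0.341 ± 0.0492 with GSK591 at 2, 4, and 7 days (adjusted p = 6.85e-06, 2.11e-08, and 3.29e-06), and 0.200 ± 0.0190 and 0.291 ± 0.0119 with both inhibitors (adjusted p = 2.91e-06 and 4.42e-09). ΔΨ of intron 4 was 0.189 ± 0.0136, 0.203 ± 0.0217, and 0.287 ± 0.0147 with GSK591 (adjusted p = 2.25e-05, 2.25e-06, and 1.28e-08), and 0.180 ± 0.0208 and 0.237 ± 0.00544 with both (adjusted p = 3.68e-06 and 1.48e-08). Neither intron was called with MS023, where adjusted p was 0.403 to 0.933. The 3 introns follow each other, so a molecule that keeps several of them adds reads to each, and their values are not independent. An alternative intron of 262 bases, which takes in introns 3 and 4 with the exon between them, was not called in any comparison.

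**Figure D2:**
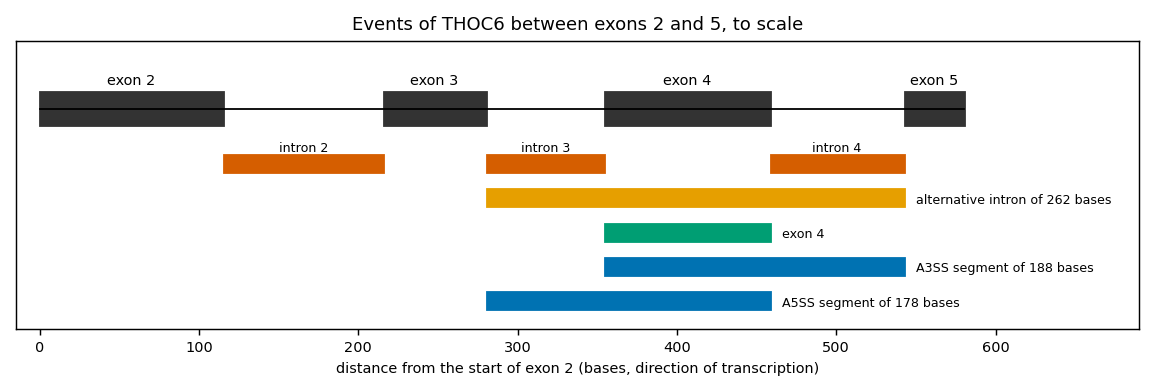
Map to scale of THOC6 exons 2 to 5 (boxes) with the 3 retained introns and the other called or tested segments drawn at their places, as distance in bases along the gene. The introns of 100, 74, and 84 bases follow each other, and the segments of 188 and 178 bases each join exon 4 to one neighbouring intron.

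Exon 4 of THOC6 (chr16:3076064-3076167, 104 bases, coding) was skipped a little more often with GSK591 at 4 days and with both inhibitors. With GSK591 alone at 2 and 7 days it was not called. Its libraries there gave 0.983, 0.895, and 0.984 at 2 days and 0.992, 0.975, and 0.900 at 7 days, and overlapped those of DMSO. Its Ψ was 0.990 in 4-day DMSO, 0.936 with GSK591 at 4 days, and 0.945 and 0.931 with both inhibitors at 2 and 4 days. ΔΨ was -0.0534, -0.0450, and -0.0586, with adjusted p = 0.00283, 0.00596, and 4.52e-04. These calls were fragile, since omission of any of 4 libraries ended the first and of any of 5 the second (adjusted p up to 0.0858 and 0.166), and omission of library a of 4-day GSK591 + MS023 ended the third (ΔΨ = -0.0445, adjusted p = 0.0794). A 3′ splice site event of 188 bases, which spans exon 4 and intron 4, gave -0.0623 with GSK591 and -0.0617 with both at 4 days (adjusted p = 0.0361 and 0.0172). A 5′ splice site event of 178 bases, which spans intron 3 and exon 4, gave -0.0510 and -0.0574 with both at 2 and 4 days (adjusted p = 0.0391 and 0.0144), with overlap with DMSO at 2 days. Each of these 4 calls ended on omission of any of 3 to 5 libraries.

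Reads were also scaled to 1000000 reads on the 4067 RI events found in all tables, to see which form differed, and are called scaled reads here. In bulk samples, fewer cells of a type and less RNA per cell cannot be told apart, and these values, chosen after the data were seen, are a description with no test. Reads that joined the exons across THOC6 intron 2 numbered 59.9 ± 8.44 scaled reads in 4-day DMSO, 27.3 ± 3.29 and 24.3 ± 3.67 with GSK591 at 2 and 4 days, and 41.1 ± 1.52 and 38.2 ± 1.64 with both inhibitors. Those of the retained form numbered 7.47 ± 2.79 in DMSO, 35.2 ± 2.34 and 43.2 ± 5.54 with GSK591, and 33.1 and 43.4 with both. None of these groups overlapped its DMSO group, so spliced reads were 0.456 and 0.406 times those of DMSO with GSK591 while retained reads were 4.71 and 5.79 times.

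**Figure D3:**
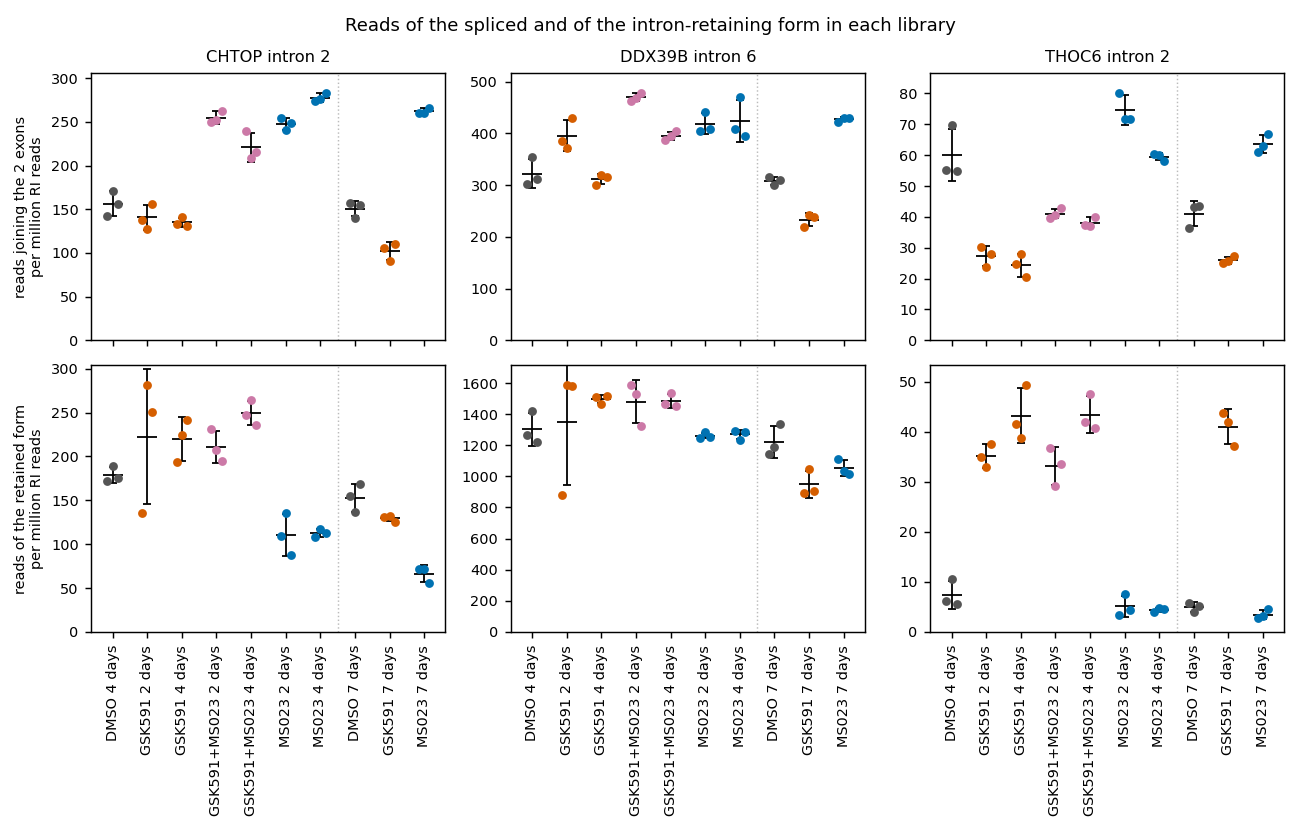
Exon-joining reads and retained-form reads, scaled to 1000000 reads on shared RI events, for CHTOP intron 2, DDX39B intron 6, and THOC6 intron 2, in all 10 groups (points are the 3 libraries, bars the mean ± SD). Exon-joining reads of CHTOP with MS023 stand at means of 248 to 278, against 151 and 156 with DMSO.

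THOC1, the THO subunit also known as HPR1, gained retention of a pair of neighbouring introns with GSK591 at 4 days. Intron 13 (chr18:225140-225336, 197 bases, minus strand) was retained at 0.107, 0.104, and 0.0924 in 4-day DMSO and at 0.237, 0.168, and 0.141 in 4-day GSK591. Intron 14 (chr18:224995-225088, 94 bases) gave 0.0536, 0.0458, and 0.0194 against 0.126, 0.0818, and 0.119. The groups did not overlap at either intron, and ΔΨ was 0.0807 ± 0.0290 (adjusted p = 0.0166) and 0.0694 ± 0.0172 (adjusted p = 0.00950). Without library a of 4-day GSK591, ΔΨ of intron 13 was 0.0531 (adjusted p = 0.112). At 2 and 7 days with GSK591 neither intron was called, with adjusted p of 0.213 to 0.556, and the change of the intron 13 effect between 4 and 7 days was not called either (adjusted p = 0.0792). Intron 13 stood lower with GSK591 than with DMSO at 7 days, at means of 0.0527 and 0.0751. With both inhibitors neither intron was called at 2 or 4 days. Means there were 0.115 and 0.115 for intron 13 (0.101 in 4-day DMSO) and 0.0708 and 0.0643 for intron 14 (0.0396).

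THOC2, the large scaffold subunit of THO, had no RI but several exons that moved. An exon of 66 bases within intron 28 (chrX:122757495-122757560), which is not in the reference transcript, was included at 0.167, 0.119, and 0.158 in 4-day DMSO. With GSK591 it was included at 0.0429, 0.0432, and 0.0311 at 2 days and at 0.0636, 0.0125, and 0.0652 at 4 days. With both inhibitors it was at 0.0256, 0.0148, and 0.0378 at 2 days and at 0.0173, 0.0446, and 0.0456 at 4 days. All 12 of these libraries lay below all DMSO libraries, and ΔΨ was -0.109 ± 0.0153 and -0.101 ± 0.0227 with GSK591 and -0.122 ± 0.0162 and -0.112 ± 0.0174 with both (adjusted p = 3.17e-05, 1.90e-04, 3.72e-07, and 3.29e-06). It was not called with MS023, nor with GSK591 at 7 days, when DMSO itself stood at 0.0774, below 4-day DMSO (ΔΨ = -0.0707, adjusted p = 0.0134).

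Further along THOC2, a splice site was used more with GSK591 and less with MS023 at 4 days. Use of a 5′ splice site that adds 532 bases of intron 32 was 0.0753, 0.0734, and 0.0754 in 4-day DMSO, 0.123, 0.114, and 0.140 with GSK591 at 4 days, 0.0522, 0.0588, and 0.0319 with MS023, and 0.172, 0.172, and 0.158 with both. The 4 groups did not overlap at 4 days. ΔΨ was 0.0512 ± 0.00779 with GSK591 (adjusted p = 4.31e-04), -0.0271 ± 0.00810 with MS023 (adjusted p = 0.0297), and 0.0924 ± 0.00465 with both (adjusted p = 1.02e-07). The MS023 call ended on omission of any of 5 libraries (adjusted p up to 0.298), and at 7 days MS023 gave -0.0202 (adjusted p = 0.00372), or 0.0625 and 0.0605 as adjusted p without library a or c of 7-day MS023. With both at 2 days the site was also called, with ΔΨ of 0.0538. GSK591 was not called at 2 or 7 days, with ΔΨ of 0.0107 and 0.000148 (adjusted p = 0.392 and 0.966), and none of the 5 calls of this site held in a limma test on log2 odds. Mean use was 0.0747 in 4-day and 0.0443 in 7-day DMSO, with no overlap, beside 0.0476 with MS023 at 4 days. The part of this difference between the controls in the calls was not tested. A 3′ splice site that adds 81 bases of intron 32 fell with MS023 at 4 days (ΔΨ = -0.0853 ± 0.00467, adjusted p = 7.38e-05) and was higher with GSK591 than with DMSO at 7 days (ΔΨ = 0.0643 ± 0.0117, adjusted p = 0.00273), or 0.0586 without library c of 7-day GSK591 (adjusted p = 0.0633). Its mean was 0.160 with 7-day GSK591, against 0.0959 in 7-day and 0.159 in 4-day DMSO. The libraries of the 2 controls did not overlap, and the part of their difference in these calls was not tested. Another form of the 81-base event, with at least 40 reads, rose by 0.139 with GSK591 at 4 days (adjusted p = 0.0358), a call that ended on omission of any of 5 libraries (adjusted p up to 0.217). The coding exon 36 (158 bases) was included less, with ΔΨ of -0.0516 and -0.0477 with GSK591 at 2 and 4 days and -0.0603 and -0.0334 with both (adjusted p = 0.00342, 0.00333, 5.91e-04, and 0.0435), and omission of any of 5 libraries ended the last call (adjusted p up to 0.181). Exon 35 (70 bases) fell by 0.143 ± 0.0379 with MS023 at 2 days only (adjusted p = 7.17e-04), with ΔΨ of -0.0704 and -0.0269 at 4 and 7 days (adjusted p = 0.129 and 0.538), and omission of any of 3 libraries ended the 2-day call (adjusted p up to 0.141).

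THOC5, the THO subunit that binds the export receptor, had an exon whose response differed between days. The exon of 116 bases lies within intron 1, before the start codon (chr22:29946717-29946832, minus strand), and had 27 to 128 reads per library. It was included at 0.763, 0.698, and 0.728 in 4-day DMSO and at 0.411, 0.634, and 0.571 in 2-day GSK591, below all 3 DMSO libraries. At 7 days it was included at 0.435, 0.449, and 0.559 with DMSO and at 0.708, 0.589, and 0.743 with GSK591, above all 3 DMSO libraries. ΔΨ was thus -0.191 ± 0.0691 at 2 days (adjusted p = 0.0398) and 0.199 ± 0.0609 at 7 days (adjusted p = 0.00881), with -0.146 ± 0.0421 at 4 days (adjusted p = 0.0542). The difference between the 7- and 4-day effects was 0.345 ± 0.0740 (interaction term, adjusted p = 0.0103), and DMSO itself differed by -0.249 between 7 and 4 days (adjusted p = 0.00310). Omission of any of 5 libraries ended the 2-day call and of any of 5 the 7-day call (adjusted p up to 0.226 and 0.247). Without library a of 7-day DMSO the adjusted p of the interaction was 0.0816. Another form of the 116-base exon was called with ΔΨ of -0.144 with both inhibitors at 2 days and 0.220 with GSK591 at 7 days. Omission of any of 5 libraries ended the first of these calls and of any of 4 the second (adjusted p up to 0.262 and 0.123). An exon of 33 bases within intron 8 rose by 0.0609 ± 0.0135 and 0.0721 ± 0.0206 with GSK591 at 2 and 4 days (adjusted p = 0.0323 and 0.0127), and omission of any of the 6 libraries ended the 2-day call and of any of 4 the 4-day call (adjusted p up to 0.170 and 0.122).

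**Figure D4:**
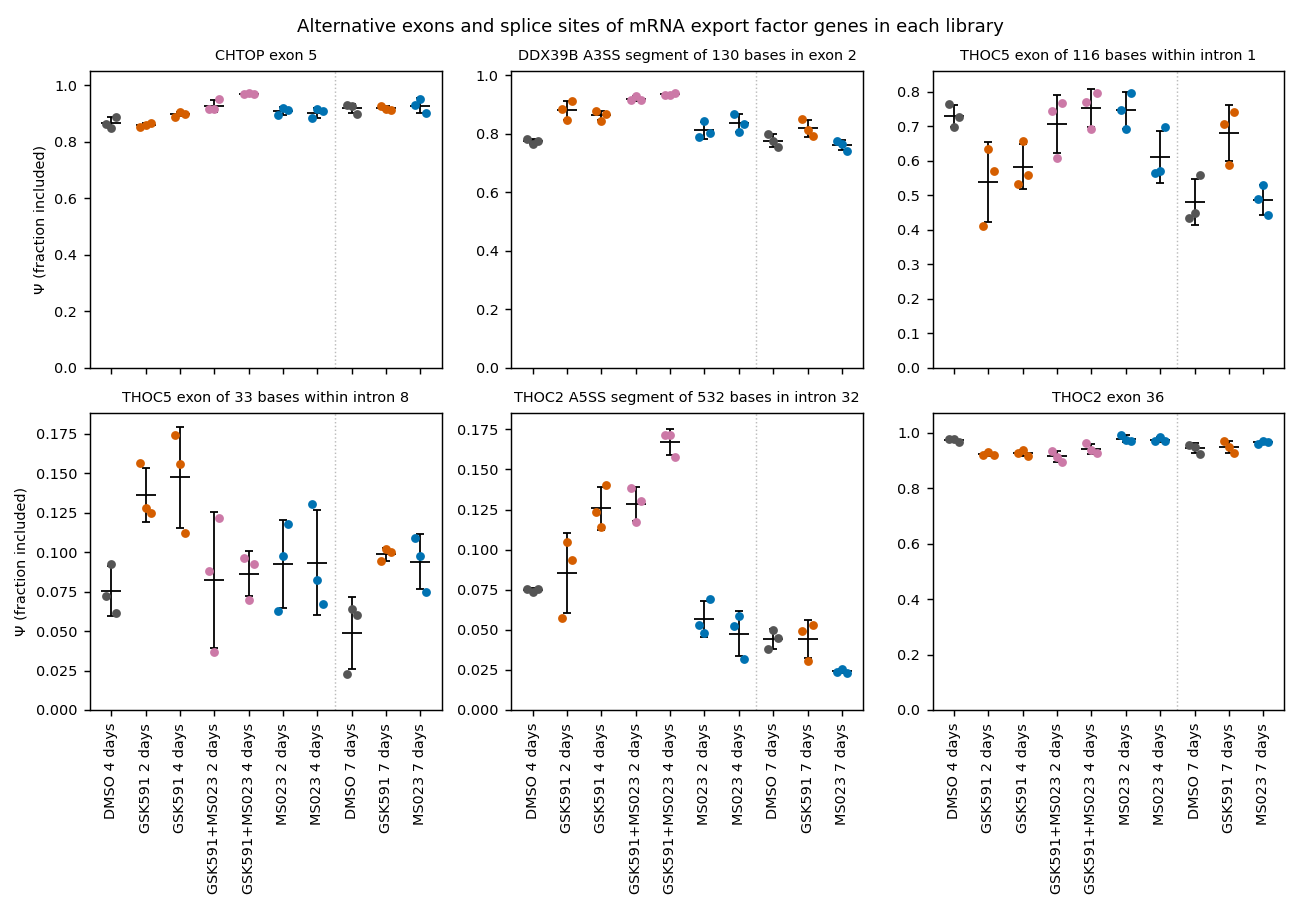
Ψ of 6 exon and splice-site events of CHTOP, DDX39B, THOC5, and THOC2 in the 10 groups (points are the 3 libraries, bars the mean ± SD, and the dotted line sets off the 7-day groups). CHTOP exon 5 reaches 0.970 with both inhibitors at 4 days against 0.867 with DMSO, and the THOC5 exon of 116 bases is below DMSO at 4 days and above it at 7 days with GSK591.

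DDX39A, the helicase that can stand in for DDX39B, gained retention of 3 introns with GSK591. Intron 8 was retained at 0.0527, 0.0751, and 0.0723 in 4-day DMSO, at 0.0999, 0.123, and 0.0811 with GSK591 at 2 days, at 0.140, 0.110, and 0.128 at 4 days, and at 0.135, 0.162, and 0.161 with both at 4 days. With 7-day DMSO it was 0.0607, 0.0603, and 0.0641 and with GSK591 0.169, 0.132, and 0.107. No GSK591 library overlapped its DMSO libraries, and ΔΨ was 0.0347 ± 0.0140, 0.0593 ± 0.0111, and 0.0744 ± 0.0181 with GSK591 and 0.0364 ± 0.00766 and 0.0861 ± 0.0114 with both (adjusted p = 0.0118, 7.15e-05, 2.07e-04, 0.00245, and 1.83e-06). The 2-day GSK591 call ended without library b of GSK591 (ΔΨ = 0.0239, adjusted p = 0.0579) or library a of DMSO (ΔΨ = 0.0277, adjusted p = 0.0785). With MS023 ΔΨ of -0.0125, -0.0141, and -0.0121 was not called (adjusted p = 0.387, 0.322, and 0.429).

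Intron 6 of DDX39A (chr19:14520686-14521027, 342 bases) was at 0.103 ± 0.0152 in 4-day DMSO and rose by 0.0326 and 0.0541 with GSK591 and by 0.0691 and 0.0763 with both at 2 and 4 days (adjusted p = 0.0177, 1.24e-04, 1.23e-05, and 4.81e-06). Its 2-day GSK591 libraries overlapped DMSO and that call ended on omission of any of 3 libraries (adjusted p up to 0.0961), and at 7 days ΔΨ of 0.0275 was not called (adjusted p = 0.108). Intron 6 holds 1 annotated exon, and a 3′ splice site that adds 108 of its bases rose by 0.0362 and 0.0401 with both. The part of that form in the reads of intron 6 was not tested. Intron 2 (chr19:14523491-14523824, 334 bases) was rarely retained, at 0.0174 ± 0.00269 in DMSO, and rose by 0.00918, 0.00842, and 0.0138 with GSK591 and by 0.0167 with both at 4 days (adjusted p = 0.0475, 0.0253, 0.00198, and 4.29e-04). Leaving out any of 5 libraries ended the 2-day GSK591 call of intron 2 and any of 3 the 4-day call (adjusted p up to 0.185 and 0.106). Exon-joining reads across intron 8 numbered 282 ± 13.6 scaled reads in 4-day DMSO and 175 ± 3.82 and 128 ± 20.6 with GSK591 and both at 4 days, with no overlap. Scaled to reads on skipped exon events instead, these 2 groups stood at 0.649 and 0.471 times DMSO. On that scale both inhibitors at 2 days gave 0.810 and GSK591 at 7 days 0.638, also below DMSO. GSK591 at 2 days gave 1.11, with overlap, although retention was called higher there. MS023 at 4 days gave 0.872, below DMSO, with no call of retention. DDX39A and DDX39B are close paralogs, so reads in their conserved exons may have been placed on either gene.

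DDX39B, the helicase also known as UAP56, lost retention of intron 6 with MS023. The intron was retained at 0.193, 0.187, and 0.183 in 4-day DMSO and at 0.150, 0.143, and 0.149 with MS023 at 2 days and 0.153, 0.131, and 0.157 at 4 days. At 7 days it was 0.172, 0.185, and 0.199 with DMSO and 0.131, 0.122, and 0.119 with MS023. All 9 MS023 libraries lay below the DMSO libraries, and ΔΨ was -0.0406 ± 0.00375, -0.0406 ± 0.00873, and -0.0613 ± 0.00861 (adjusted p = 9.97e-07, 4.47e-04, and 2.54e-09). With GSK591 it rose by 0.0279 ± 0.00526 at 4 days (adjusted p = 9.56e-04) and was not called at 2 and 7 days (ΔΨ = -0.0259 and 0.00388, adjusted p = 0.192 and 0.730), and with both it fell by 0.0352 ± 0.00877 at 2 days (adjusted p = 1.13e-04). At 2 days library a of GSK591 gave 0.116, where the others gave 0.196 and 0.174. Without it ΔΨ was -0.00290 (adjusted p = 0.836), and without library b it was -0.0430 and was called as a loss (adjusted p = 0.0230). The intron also lies within a same-strand readthrough gene, ATP6V1G2-DDX39B, and holds 1 annotated exon, so its reads cannot be given to DDX39B alone.

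At the first exons of DDX39B, the choice of 3′ splice site keeps or drops 130 bases of exon 2 before the start codon (chr6:31508312-31508441). Exon 2 of the reference transcript holds these bases, and Ψ is the share that keeps them. This segment is listed in several forms. In the form described here it was included more with each of the 3 treatments at 4 days. Its Ψ was 0.783, 0.766, and 0.775 in 4-day DMSO, 0.883, 0.846, and 0.910 with GSK591 at 2 days, 0.876, 0.845, and 0.867 at 4 days, and 0.933, 0.934, and 0.940 with both at 4 days. The libraries with both inhibitors were highest and did not overlap those with GSK591 alone. ΔΨ was 0.105 ± 0.0194 and 0.0880 ± 0.0107 with GSK591, 0.0615 ± 0.0186 with MS023 at 4 days, and 0.145 ± 0.00717 and 0.161 ± 0.00559 with both (adjusted p = 3.08e-06, 1.73e-06, 0.00445, 4.32e-16, and 2.23e-15). Omission of any of 3 libraries ended the MS023 call, up to adjusted p = 0.230, and neither inhibitor was called at 7 days (adjusted p = 0.115 and 0.655). In another form the same 130 bases rose by only 0.0167 with GSK591 at 4 days and 0.0155 with both at 2 days (adjusted p = 0.0384 and 0.0386). The remaining forms were not called in any comparison with DMSO.

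CHTOP, an adaptor that works with ALYREF and a substrate of PRMT1, showed the clearest loss of retention with MS023. Intron 2 was retained at 0.0914, 0.0846, and 0.0855 in 4-day DMSO, at 0.0344, 0.0448, and 0.0285 with MS023 at 2 days, and at 0.0318, 0.0342, and 0.0321 at 4 days. At 7 days it was 0.0758, 0.0747, and 0.0829 with DMSO and 0.0224, 0.0226, and 0.0172 with MS023. The highest MS023 library, at 0.0448, lay below the lowest DMSO library, at 0.0747, and ΔΨ was -0.0512 ± 0.00521, -0.0545 ± 0.00226, and -0.0571 ± 0.00312 (adjusted p = 2.50e-10, 9.44e-10, and 2.71e-13). With GSK591 the libraries gave 0.0753, 0.155, and 0.118 at 2 days, 0.108, 0.117, and 0.133 at 4 days, and 0.0940, 0.108, and 0.0870 at 7 days. Retention thus rose at 4 and 7 days, by 0.0321 ± 0.00770 and 0.0185 ± 0.00666 (adjusted p = 3.00e-04 and 0.0308), and ΔΨ at 2 days was 0.0288 ± 0.0231 (adjusted p = 0.142), or 0.0491 without library a (adjusted p = 5.46e-05), 0.00935 without b (adjusted p = 0.663), and 0.0280 without c (adjusted p = 0.227). Leaving out any of 4 libraries ended the 7-day call, up to adjusted p = 0.171.

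With both inhibitors CHTOP intron 2 lay between the single treatments. It was retained at 0.0715, 0.0640, and 0.0580 at 2 days and at 0.0793, 0.0954, and 0.0838 at 4 days. The 2-day libraries were below DMSO, with ΔΨ of -0.0226 ± 0.00446 (adjusted p = 4.67e-04), and the 4-day libraries overlapped it (ΔΨ = -0.000965, adjusted p = 0.868). Exon-joining reads across intron 2 numbered 156 ± 14.3 scaled reads in 4-day DMSO, means of 248 and 278 with MS023, and 255 and 221 with both, with no overlap with DMSO. They numbered 102 with GSK591 at 7 days against 151 with DMSO, again with no overlap, and there the retained form was lower too, at 0.847 times DMSO. Reads of the retained form numbered 179 ± 9.37 in 4-day DMSO, 111 and 113 with MS023, and 211 ± 18.5 and 249 ± 13.8 with both, so that with both inhibitors the 2 forms were each above DMSO.

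Exon 5 of CHTOP (chr1:153615703-153615840, 138 coding bases) was included at 0.863, 0.850, and 0.889 in 4-day DMSO, at 0.914, 0.916, and 0.950 with both at 2 days, and at 0.969, 0.973, and 0.968 at 4 days. The libraries with both inhibitors were all above DMSO, with ΔΨ of 0.0591 ± 0.0162 and 0.103 ± 0.0115 (adjusted p = 4.57e-04 and 2.27e-10). MS023 gave 0.0411 ± 0.0135 at 2 days (adjusted p = 0.0423), a call that ended on omission of any of 5 libraries (adjusted p up to 0.305), and GSK591 was not called (adjusted p = 0.209 to 0.985). The exon was also 0.0502 higher in 7-day than in 4-day DMSO (adjusted p = 0.0107).

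Many of the calls against DMSO depended on the test. A limma test on the log2 odds of the forms kept 25 of the 79 calls described here, among them all 15 of the THOC6 introns, but none of the 6 of CHTOP intron 2 (adjusted p = 0.0719 to 0.342) and none of the 5 of DDX39B intron 6 (adjusted p = 0.187 to 0.463). It also kept none of the 3 calls of CHTOP exon 5, 1 of 5 of the 130-base DDX39B segment, 1 of 4 of the THOC2 exon of 66 bases, none of the other THOC2 calls, none of the 6 THOC5 calls, and none of those of THOC6 exon 4 and the splice site events around it. For DDX39A it kept 3 and lost 2 calls of intron 8, and kept 2 and lost 2 each of introns 6 and 2. Both lost calls of intron 6 were those with GSK591 alone (adjusted p = 0.320 and 0.0614). The call of THOC1 intron 14 was kept and that of intron 13 lost. By that test no member event was called with MS023 at 2, 4, or 7 days. The share of all events that it called is not given here, so this says nothing particular to the members.

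ALYREF, an adaptor that hands mRNA to the export receptor, had 2 events called, both with very small ΔΨ. Its exon 4 fell by 0.00201 with both at 4 days, and an exon of 187 bases within intron 2 rose by 0.00227 with MS023 at 4 days (adjusted p = 0.00878 and 0.00570). SARNP, an adaptor that binds DDX39B, had 9 events tested and 0 called.

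NXF1, the export receptor, had no call at its long intron 10 in any comparison. The intron, known for a retained form that is itself exported, was retained at 0.226, 0.186, and 0.191 in 4-day DMSO, at 0.163, 0.185, and 0.184 in 4-day GSK591, and at 0.213, 0.236, and 0.237 in 7-day MS023. GSK591 was lower at 4 days in all 3 libraries and overlapped DMSO at 2 and 7 days. The lowest adjusted p was 0.0838 for both inhibitors at 2 days (ΔΨ = -0.0351 ± 0.0128), which does not show that its retention stayed the same. Of the other NXF1 events, 3 skipped exons were called, with ΔΨ of -0.0174 to -0.0324.

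**Figure D5:**
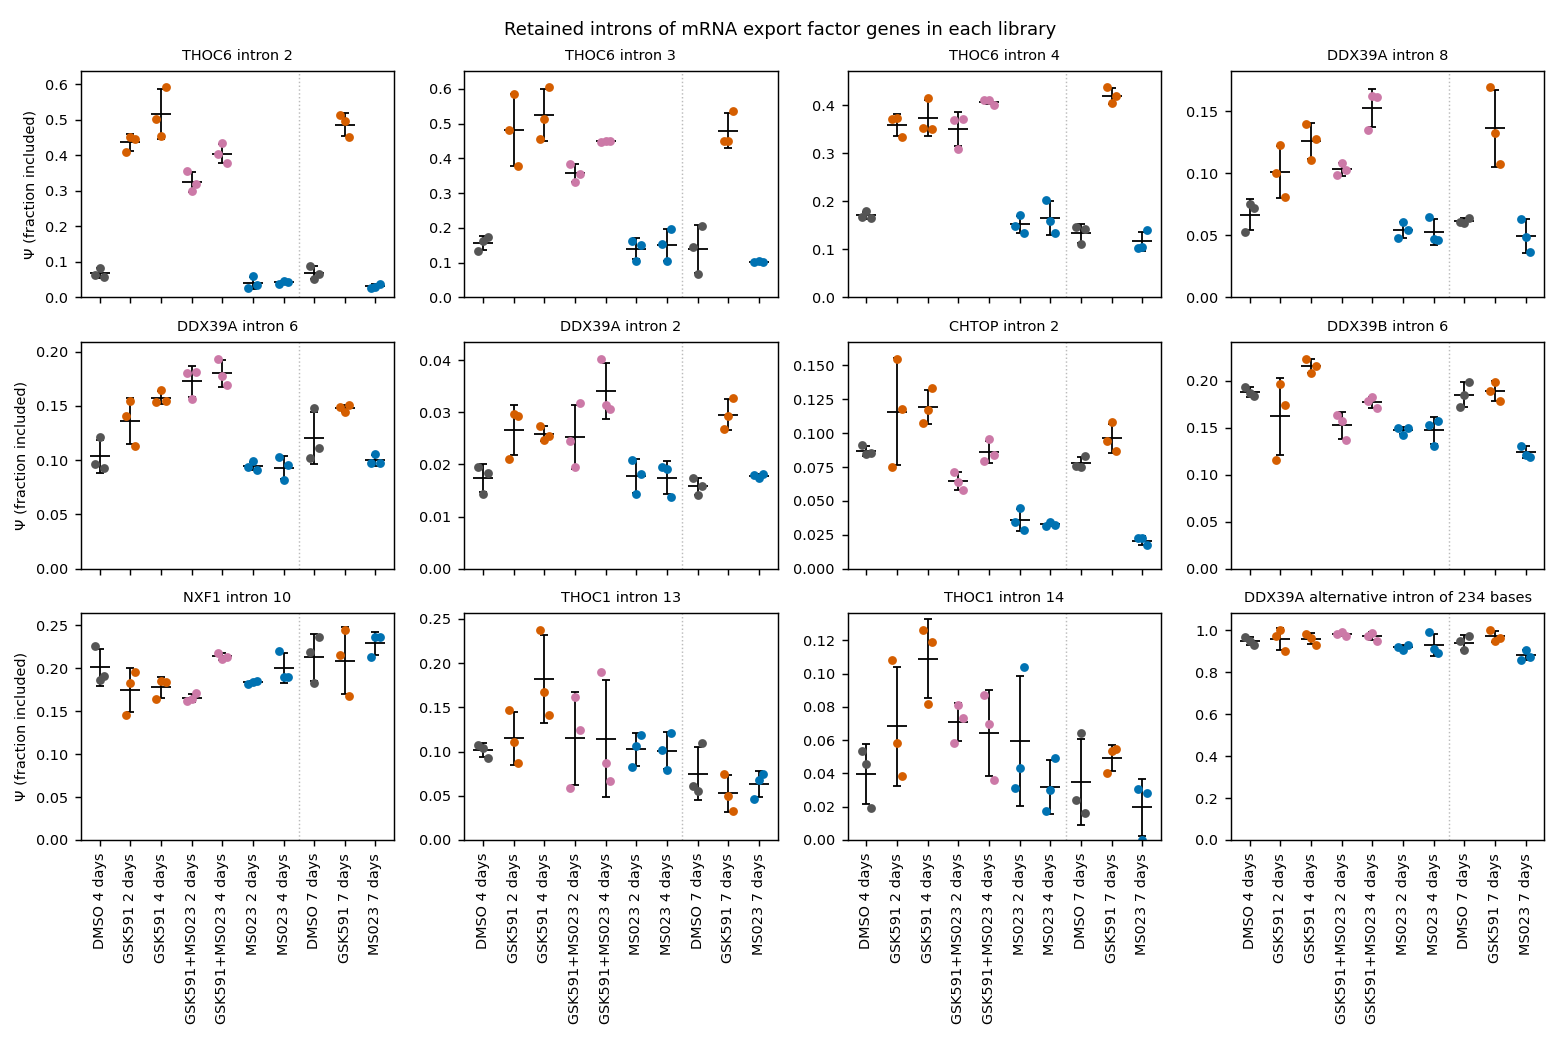
Ψ of the 11 reference-transcript introns and of the alternative DDX39A intron of 234 bases in the 10 groups (points are libraries a, b, and c, bars the mean ± SD, and the dotted line sets off the 7-day groups). The THOC6 introns have means of at least 0.325 in every group with GSK591, and CHTOP intron 2 is lowest with MS023, at 0.0207 to 0.0359.

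The inhibitors were next compared with each other at matched days. GSK591 gave higher retention than MS023 in 7, 10, and 8 of the 11 reference introns at 2, 4, and 7 days and lower in none. Over all member RI this was 7 of 15, 10 of 14, and 9 of 14 called, against 35% (31.4% higher), 45.7% (40.9% higher), and 39.9% (32.9% higher) of all RI. CHTOP intron 2 was 0.0801 ± 0.0235, 0.0866 ± 0.00744, and 0.0756 ± 0.00639 higher with GSK591 (adjusted p = 1.67e-06, 9.19e-18, and 6.09e-24), and the groups did not overlap on any day. These CHTOP calls held in the limma test on log2 odds too (adjusted p = 0.0210, 0.00152, and 0.00167). DDX39B intron 6 was 0.0685 ± 0.00930 and 0.0652 ± 0.00692 higher at 4 and 7 days (adjusted p = 8.90e-11 and 1.20e-15), but not at 2 days (adjusted p = 0.530). THOC6 intron 2 was 0.396 ± 0.0170, 0.473 ± 0.0399, and 0.454 ± 0.0187 higher (adjusted p = 1.51e-09, 4.07e-15, and 1.18e-21). Across event types 19 of 86, 22 of 87, and 19 of 85 member events were called, against 11.7%, 17.1%, and 14.7%.

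With MS023 added to GSK591, 1 of the 11 introns was lower at 2 days and 2 at 4 days, out of 15 and 14 member RI tested, against 3.62% (1.65% lower) and 9.17% (5.33% lower) of all RI. For CHTOP intron 2 the difference from GSK591 alone was -0.0515 ± 0.0233 and -0.0331 ± 0.00881 (adjusted p = 0.00906 and 1.20e-04), and for DDX39B intron 6 it was -0.0387 ± 0.00547 at 4 days (adjusted p = 1.03e-05). THOC6 intron 2 differed by -0.111 on both days, with no overlap, and was not called (adjusted p = 0.118 and 0.0545). Both CHTOP calls ended when events with reads of a single form stayed in the test (adjusted p = 0.326 and 0.0986), and the DDX39B call held there (adjusted p = 0.0328) but ended in the limma test on log2 odds (adjusted p = 0.383). CHTOP exon 5 and the 130-base DDX39B segment were higher with both inhibitors than with GSK591, by 0.0667 and 0.0731 and by 0.0402 and 0.0731 (adjusted p = 3.53e-05, 1.44e-08, 0.00316, and 2.87e-09). These 4 calls ended both with single-form events kept and in the limma test, which left 0 member events called on either day. In all, 7 of 95 and 10 of 92 member events were called, against 4.41% and 6.53% of all events.

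The effect of GSK591 differed between 7 and 4 days in 2 of 97 member events, against 1.83% of all, and both were forms of the THOC5 exon of 116 bases. That of MS023 differed in 0 of 82 member events in this model, against 0.0779% of all, with 11 at an unadjusted p under 0.05 and 0 in the limma test on log2 odds. No intron was called in either test of days, against 6.23% (GSK591) and 0.295% (MS023) of all RI. Between 7- and 4-day DMSO, 11 of 107 member events were called, against 7.04% of all events, and 0 of the 11 introns, against 8.89% of all RI.

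In the rest of the pathway, a list of TREX, exon junction complex, TREX-2, pore, and nuclear decay genes, the RI called with GSK591 were gains, as in the members. Of 16 RI tested, 5, 7, and 5 rose with GSK591, 4 and 7 with both inhibitors, and 1, 1, and 0 with MS023, and 0 fell in any of the 8 comparisons. These counts are to be read against the shares of all RI. With GSK591 24%, 33.9%, and 21.8% of all RI were higher. With both inhibitors 29.7% and 33.6% were higher and 5.03% and 6.1% lower. With MS023 5.65%, 7.17%, and 11.4% were called in either direction, and 4.21%, 5.6%, and 9.49% were lower. An intron of MCM3AP, the TREX-2 scaffold (chr21:47666319-47666541), went from 0.177 ± 0.0259 to 0.354 ± 0.0253 and 0.402 ± 0.103 at 2 and 4 days and from 0.246 ± 0.0276 to 0.415 ± 0.0164 at 7 days (adjusted p = 1.41e-04, 4.33e-05, and 1.29e-04). One of ZFC3H1, which ties nuclear RNA to exosome decay (chr12:72004878-72005565), rose by 0.186, 0.229, and 0.193 (adjusted p = 5.16e-05, 2.99e-05, and 5.90e-04). One of DDX19A, a pore-side helicase (chr16:70404289-70405274), rose by 0.140, 0.115, and 0.0558 (adjusted p = 4.01e-06, 2.37e-06, and 2.49e-05). One of SRRM1, of the exon junction complex (chr1:24973281-24975349), rose most with both at 4 days, by 0.122 ± 0.00987 (adjusted p = 7.88e-11). Of the skipped exons of these genes, 18 of 399, 27 of 399, and 6 of 347 fell with GSK591 at 2, 4, and 7 days and 3, 13, and 14 rose. Of all skipped exons 5.82%, 8.07%, and 4.96% fell and 1.34%, 2.52%, and 3.59% rose. Between 7- and 4-day DMSO 10 of 306 fell and 1 rose, against 2.47% and 0.589% of all. The part of this difference between the controls in the 7-day counts was not tested.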

How the data were processed

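A549 poly(A)-RNA seq libraries (30 libraries in 10 groups of 3, stranded and paired-end) were analysed. Per the labels, the authors trimmed reads with Trim Galore 0.6.5, aligned them to hg19 with STAR 2.4.2a, and ran rMATS 4.0.2. The 8 tables the authors deposited hold, per event and library, whole-number counts of inclusion and skipping reads, junction and segment reads together, which are not normalized, with effective lengths. The authors' inclusion levels (16 columns) and their test columns (p-value, FDR, and inclusion difference) were not used. All count columns were used (0 unmapped). Columns name libraries by position alone.

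Ψ came from the length-scaled counts. Events with at least 10 reads in every library were tested with a quasi-binomial likelihood ratio whose dispersion was moderated by squeezeVar of limma 3.58.1 (R 4.3.3) and held at 1 or above, then an F test, adjusted within event type. Events whose reads all supported a single form were left out, a choice made after the data were seen. Alternatives were a limma test on log2 odds (prior count 0.5), other read minimums (20, or none), pooled adjustment, Ψ without lengths, and omission of each library. The method was tested on simulated counts. Their spread was the one fitted by the main test, and changes were placed only in events away from full or no inclusion. There the method recovered changed introns, was slightly liberal for skipped exons, and the log2-odds test recovered few changes. Since the spread came from the main test, the simulation cannot rank the tests. It also cannot speak for events with almost full or almost no inclusion. Introns and sequences came from GENCODE and GRCh37. Named were every tested RI, and other events called with an absolute ΔΨ of at least 0.05, at most 4 per gene and type, or 0.1 for other pathway genes. Members and lists were chosen with earlier results of these data known. The depth limits ΔΨ of events with few reads, and SKaTER-seq and actinomycin D libraries were not analysed here. Analyses used Python 3.11.15, numpy 2.4.6, pandas 2.3.3, and scipy 1.17.1.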

Additional observations from a re-analysis of the deposited data

Results flagged for a closer look

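The GSK591 effect on the THOC5 exon of 116 bases differed between days, by a test of the difference itself. The 7-day ΔΨ minus the 4-day ΔΨ was 0.345 for the form with the higher inclusion (adjusted p = 0.0103) and 0.282 for the form 2 event, which shares the exon and differs in the upstream flanking exon (adjusted p = 0.0289). The 7-day DMSO libraries differed from those of 4-day DMSO by -0.249 and -0.161, and the 4- and 7-day GSK591 means were 0.583 and 0.680 for the first and 0.407 and 0.529 for the second. Both rest on 49 reads or more, and 66 reads or more, per library. Adjusted p under the limma test on log2 odds was 0.410 and 0.516, and leaving out 1 library ended the first call for 1 of 12 libraries and the second for 8 of 12. The part of the DMSO change between days in these values was not tested.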

How the results depend on the processing

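No paired analysis was possible because the count columns carry no replicate numbers. Of 79 named calls against DMSO, all 79 held with 20 reads per library, with single-form events kept, and without effective lengths, 77 with no minimum, and 74 with adjustment over all types. None reversed in any alternative run. The limma test on log2 odds kept 25 and left fewer member events called: 3, 7, and 5 with GSK591 at 2, 4, and 7 days, 0, 0, and 0 with MS023, 8 and 8 with both, 5, 10, and 7 for GSK591 against MS023, 0 and 0 for both against GSK591, 0 for the GSK591 effect between days, and 3 for DMSO between days. With single-form events kept, which was chosen after seeing the data, the counts were 6, 12, and 8 for GSK591 against MS023, 0 and 1 for both against GSK591, and 4 for DMSO between days. With each library left out in turn, they ran from 8 to 13, 15 to 20, and 7 to 8 with GSK591, 2 to 5, 3 to 5, and 2 to 4 with MS023, 15 to 20 and 13 to 18 with both, 13 to 18, 13 to 19, and 12 to 17 for GSK591 against MS023, 2 to 8 and 5 to 9 for both against GSK591, 1 to 2 (GSK591) and 0 to 1 (MS023) for effects between days, and 4 to 9 for DMSO between days. The shares of all events called in these alternative runs are not given here. Of the 79 calls, 27 ended with at least 1 library left out. Causes were not tested. Depth limits events with few reads, such as the THOC5 exon of 116 bases (27 reads in the shallowest library) and a form of the THOC2 segment of 81 bases (21 reads).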

Other observations

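Smaller changes were also called in members. An exon of 185 bases within intron 5 of DDX39A (chr19:14521233-14521417), outside the reference transcript, had ΔΨ of -0.0208, -0.0213, and -0.0262 with GSK591 at 2, 4, and 7 days and of 0.0234 with MS023 at 7 days (adjusted p = 5.91e-05, 8.14e-06, 3.73e-05, and 0.0121). A 3′ splice site that adds 108 bases of DDX39A intron 6 rose by 0.0362 and 0.0401 with both inhibitors at 2 and 4 days (adjusted p = 6.00e-04 and 7.64e-04). Coding exon 3 of DDX39B had ΔΨ of -0.0121 and -0.00759 with both at 2 and 4 days (adjusted p = 5.72e-04 and 0.0230). Exon 11 of THOC6 fell by 0.0453 with both at 2 days (adjusted p = 0.00118). These events lie under the ΔΨ of 0.05 used to name events and were picked after their values were seen.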
